A study of Bos taurus with 12 samples.

Results

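Fibrillar collagens are the collagens whose trimers line up side by side into the banded fibrils of connective tissue. The genes described are COL1A1, COL1A2, COL3A1, COL5A1, COL5A2, COL5A3 and COL11A1, found by gene name in the mRNA table, where they are 7 of 33714 genes. All 7 had a mean of at least 0.1 FPKM (fragments per kilobase of transcript, scaled to the mapped fragments of the library) over the 12 libraries and were therefore among the 15401 mRNAs tested. The lowest single value of any of them was 3.25 FPKM.

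The cells were preadipocytes that the authors isolated from newborn Qinchuan cattle (longissimus dorsi muscle), and the labels call them intramuscular adipocytes from intramuscular fat. Uninduced cells at 90% confluence were the 0 d group, and cells 3 d, 6 d and 9 d after induction were the other groups, with 3 libraries a day and 12 in all. Induction took 48 hours in dexamethasone, IBMX and insulin, after which the medium held insulin without the other agents. Each later day was compared with 0 d, and 6 d was compared with 3 d and 9 d with 6 d, which shows the way between successive days. Uninduced cells were sampled at 0 d only, so that induction and time in culture cannot be told apart. The 3 comparisons with 0 d share the 0 d libraries, and the others share the 3 d or 6 d libraries with them. The paper names 3 biological replicates a day and the same batch of cells for all days. Whether the replicates came from different animals is not stated, so that the spread within a day may be that between cultures.

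Each collagen chain is translated into the endoplasmic reticulum, hydroxylated on prolines and lysines, folded into a triple helix with the help of chaperones, secreted, trimmed of its propeptides and cross-linked outside the cell. Type I collagen, the bulk of most fibrils, is built from COL1A1 and COL1A2 chains, with more of the former in each trimer, while type III is a trimer of COL3A1 chains alone and mixes with type I in pliable tissues such as the sheaths around muscle fibres. Type V collagen (COL5A1, COL5A2 and the rarer COL5A3) and type XI collagen (COL11A1, best known from cartilage) sit inside the fibrils, where they start fibril assembly and limit fibril width. In fat the fibrillar matrix surrounds each adipocyte, and preadipocytes in culture are known to remodel it as they differentiate.

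The label of the cells was checked against markers, given as FPKM summed over each list. Stromal progenitor markers were abundant on each day (819.6 at 0 d, 1403 after 3 d, 613 after 6 d and 988 after 9 d), but did not move together. PDGFRB, the most abundant over the course, had means of 586, 226, 212 and 597 FPKM on the 4 days, and PDGFRA, which made up most of the 3 d sum, of 159.6, 929.5, 162 and 203. Of the 5 tested 3 rose and 2 fell at 3 d vs. 0 d, where 8.06% of all mRNAs were called higher and 15.2% lower. Of the 2 falls that of CD34 was lost with a pseudocount of 1 (log2 fold change -0.56), and DLK1 was below 0.1 FPKM on average on each day. Adipocyte markers summed to 8.03 at 0 d, 103 after 3 d, 30.5 after 6 d and 16.5 after 9 d, and nearly all of the 3 d value was FABP4, a fatty acid carrier, at 91.1 ± 4.42 (SD, n = 3). PPARG and PLIN1, also on this list, were not found by name in the mRNA table and are not in these sums. ADIPOQ, which mature adipocytes secrete, was at most 1.64 FPKM in any library, and CEBPA at most 0.260. Skeletal muscle markers were present too and summed to 764 at 0 d, 284 after 3 d, 392 after 6 d and 295 after 9 d, with the filament gene DES as the most abundant and the myoblast factor MYOD1 at 268 ± 32.5 FPKM at 0 d. Endothelial markers were at 1.76 to 2.44 FPKM in sum on the 4 days, with PECAM1 and KDR under 0.1 in each library. Blood and immune markers summed to 0.527 at 0 d, 1.17 after 3 d, 0.583 after 6 d and 0.550 after 9 d, with PTPRC at 0 in all 12 libraries and CSF1R as the most abundant gene. CSF1R had means of 0.330, 0.870, 0.320 and 0.290 FPKM on the 4 days and was called higher at 3 d vs. 0 d and lower at 6 d vs. 3 d, where 9.23% of all mRNAs were called lower. Both calls were lost with a pseudocount of 1 (log2 fold changes 0.50 and -0.50), and the first also without the third 0 d library (1.00, just under the threshold of 1). The part of this gene in the values of the collagens was not tested. Bone markers summed to 0.527 at 0 d, 0.550 after 3 d, 1.01 after 6 d and 0.797 after 9 d, with BGLAP under 0.1 in each library. In bulk RNA of such a culture, fewer cells of a type and less RNA per cell cannot be told apart.

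The 7 genes spanned from a few FPKM for COL5A3 to 170827 for COL3A1 at 9 d. At 0 d, 6 d and 9 d the order of the mean levels was COL3A1, COL1A2, COL1A1, COL5A2, COL5A1, COL11A1 and COL5A3, from high to low. At 3 d COL1A1 came below COL5A2, and the rest of the order was as on the other days. On none of the 4 days did the libraries of neighbours in this order overlap, although at 3 d the lowest COL11A1 library (23.1 FPKM) was close to the highest COL5A3 library (22.5).

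COL3A1 was the most abundant of the 15401 tested mRNAs on each of the 4 days. COL1A2 had rank 8 at 0 d, 19 after 3 d, 11 after 6 d and 9 after 9 d. COL1A1 ranked 46 at 0 d and 164 at 3 d. COL11A1 went from rank 1012 at 0 d to 3809 at 3 d, and stood at 628 at 9 d. COL5A3 went from rank 6636 at 0 d to 4175 at 3 d and 8126 at 9 d. Together the 7 genes took 9.32% ± 0.151 (SD, n = 3) of all mRNA FPKM at 0 d, 10.8% ± 0.189 after 3 d, 8.93% ± 0.340 after 6 d and 14.2% ± 0.285 after 9 d. Most of this was COL3A1, which made up 86.7% ± 0.650 of the 7 genes' FPKM at 0 d, 94.1% ± 0.212 after 3 d, 82.5% ± 0.512 after 6 d and 89.0% ± 0.598 after 9 d. A sum over the 7 genes therefore mainly describes COL3A1 mRNA.

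**Figure D1:**
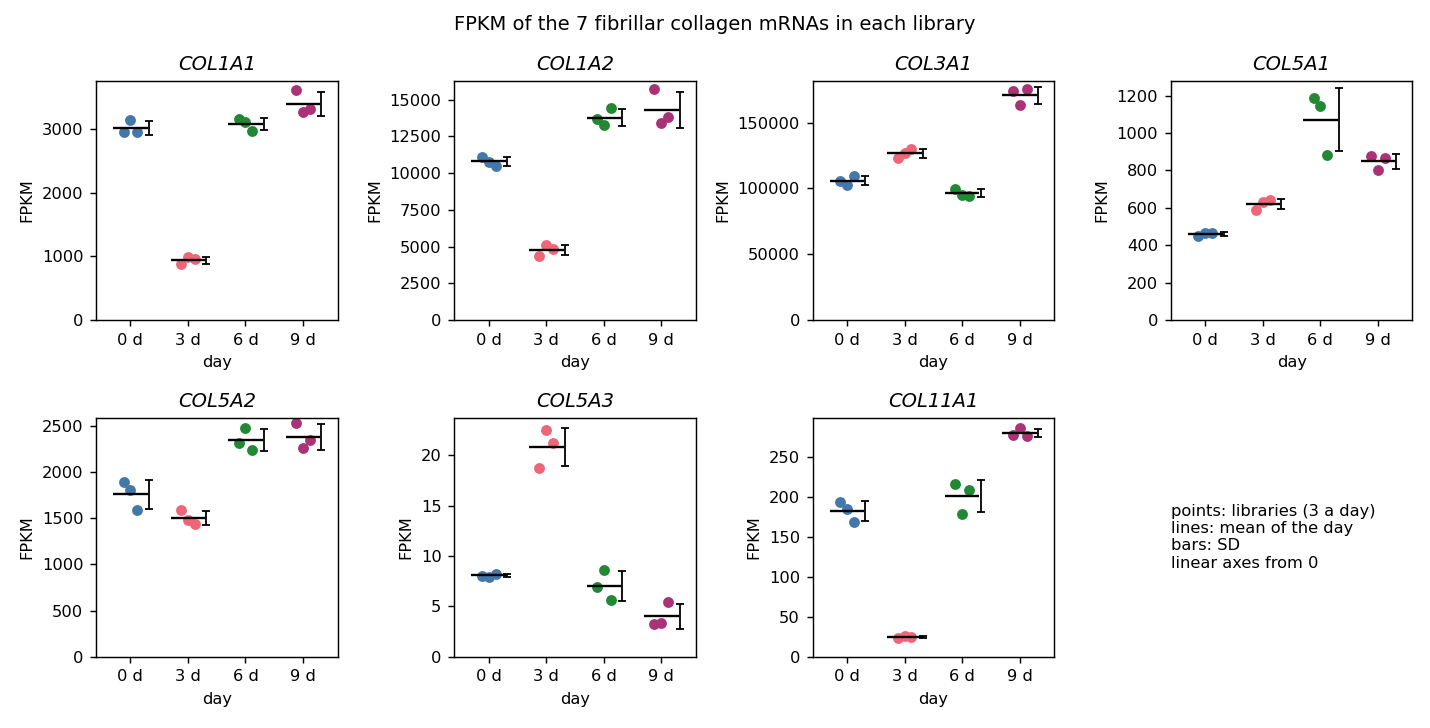
FPKM (y axis, linear, from 0) of each of the 7 fibrillar collagen mRNAs in the 12 libraries by day (x axis). Points are libraries, horizontal lines are means of 3 libraries and bars are SD. COL1A1, COL1A2 and COL11A1 have their lowest day at 3 d, COL5A3 has its highest there, and COL3A1 is highest at 9 d.

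The type I chains fell at 3 d and were back at or above the 0 d level at 6 d. COL1A1, the more numerous chain of the type I trimer, was at 2949.6, 3146 and 2957 FPKM in the 0 d libraries. At 3 d it was at 877, 987 and 958 FPKM. At 6 d the libraries held 3159, 3112 and 2969 FPKM, and at 9 d 3615, 3259 and 3306. The 3 d libraries lay below all others, and those of 0 d and 6 d overlapped. The mean was 3018 ± 111 FPKM (SD, n = 3) at 0 d and 941 ± 57.1 at 3 d, so that the 0 d level was 3.21 times the 3 d level. In the limma fit over all tested mRNAs, in which a call needs more than a 2-fold change and a p under 0.05 after Benjamini-Hochberg adjustment, the log2 fold change of 3 d vs. 0 d was -1.68 ± 0.059 (SE, adjusted p = 6.49e-09). From 3 d to 6 d COL1A1 rose by 1.71 ± 0.059 (SE, limma adjusted p = 9.3e-09).

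COL1A2, the other type I chain, followed the same course with a smaller dip. Its 0 d libraries held 11124, 10766 and 10509 FPKM, and its 3 d libraries 4375, 5103 and 4834. Its 6 d libraries held 13657, 13263 and 14409 FPKM, and its 9 d libraries 15698, 13414 and 13834. The 3 d libraries were again below all others, while the 6 d and 9 d libraries overlapped each other and lay above those of 0 d. The 0 d mean was 2.26 times the 3 d mean, with a log2 fold change of -1.18 ± 0.072 (SE, limma adjusted p = 3.56e-07). From 3 d to 6 d the rise was 1.53 ± 0.072 on the log2 scale (SE, limma adjusted p = 8.12e-08). At 9 d COL1A2 was 1.33 times its 0 d level, a log2 fold change of 0.40 (95% confidence interval 0.24 to 0.56) with a limma adjusted p of 0.00156, which is under the fold needed for a call.

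COL11A1, the type XI chain, had the deepest dip of the 7 genes. The 0 d libraries held 193, 184 and 168 FPKM and the 3 d libraries 23.1, 26.4 and 24.4. At 6 d the libraries held 215, 178 and 209 FPKM, and at 9 d 277, 285 and 276. The 6 d libraries overlapped those of 0 d, and the 9 d libraries lay above all others. The 0 d mean was 7.38 times the 3 d mean (log2 fold change -2.88 ± 0.084, SE, limma adjusted p = 1.81e-09). Between its lowest day, 3 d, and its highest, 9 d, the level differed 11.3 times. From 3 d to 6 d COL11A1 rose by 3.02 ± 0.084 on the log2 scale (SE, limma adjusted p = 2.28e-09). Against 0 d the 9 d libraries were 1.54 times as high (log2 fold change 0.62, 95% confidence interval 0.43 to 0.81, limma adjusted p = 0.000283), short of a call. The cartilage markers, as which type XI collagen is often counted, summed to 9.77 at 0 d, 1.66 after 3 d, 13.7 after 6 d and 5.48 after 9 d FPKM. ACAN was the most abundant gene over the course, though not at 3 d or 9 d, and COL9A1 was at 0 in all 12 libraries. ACAN had means of 7.01, 0.260, 13.1 and 2.40 FPKM on the 4 days. SOX9, the cartilage transcription factor, had means of 2.67, 1.34, 0.410 and 2.88 and was lowest at 6 d, when ACAN was highest. The part of these markers in the COL11A1 values was not tested.

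COL3A1, the chain of type III collagen, did not dip at 3 d. The 0 d libraries held 105377, 102820 and 109333 FPKM. The 3 d libraries held 123034, 126884 and 129901 FPKM and the 6 d libraries 99910.5, 95106 and 93893. Those of 9 d held 173652, 163376 and 175454. No day's libraries overlapped those of another day, so that the spread within a day was smaller than each step. The means were 105843 ± 3281 FPKM (SD, n = 3) at 0 d, 126606 ± 3442 after 3 d, 96303 ± 3182 after 6 d and 170827 ± 6516 after 9 d. These steps stayed under the 2-fold threshold in all 5 comparisons, and the largest, 9 d vs. 6 d, was 0.83 on the log2 scale (95% confidence interval 0.73 to 0.92, limma adjusted p = 1.25e-06). Against 0 d the 9 d level was 1.61 times as high (log2 fold change 0.69, 95% confidence interval 0.60 to 0.78, limma adjusted p = 1.29e-06). COL3A1 and COL5A2 are direct neighbours on chromosome 2 in the gene order of the RefSeq annotation of ARS-UCD2.0, while the other 5 genes lie on chromosomes 3, 4, 7, 11 and 19.

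Among the type V chains COL5A1, the chain common to most type V trimers, was higher after induction. Its 0 d libraries held 447, 464 and 467 FPKM, and its 3 d libraries 589.7, 632 and 641. The 6 d libraries held 1188, 1147 and 882 FPKM, and the 9 d libraries 877, 802 and 866. All 9 libraries of induced cells lay above the 3 of 0 d. The 6 d mean was 2.33 times the 0 d mean, with a log2 fold change of 1.21 ± 0.099 (SE, limma adjusted p = 8.54e-06). At 9 d the log2 fold change was 0.88 (95% confidence interval 0.66 to 1.11, limma adjusted p = 8.74e-05), just short of a call, and it passed at 1.09 when FPKM were rescaled by the median ratio between libraries. At 3 d it was 0.43 (95% confidence interval 0.21 to 0.66, limma adjusted p = 0.00415), also under the fold threshold.

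COL5A2, the partner of COL5A1 in the common type V trimer, varied least of the 7 genes, by 1.58 times between its lowest and its highest day. The 0 d libraries held 1889, 1802 and 1587 FPKM and the 3 d libraries 1592, 1476 and 1438, and these days overlapped. At 6 d they held 2315, 2473 and 2241 FPKM and at 9 d 2530.4, 2257 and 2345, above all libraries of 0 d and 3 d. The log2 fold change of 9 d vs. 0 d was 0.44 (95% confidence interval 0.27 to 0.60, limma adjusted p = 0.00128). COL5A2 was called in none of the 5 comparisons by limma. In 4 of them its adjusted p was under 0.05, and the change was under the fold threshold.

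COL5A3, the rarer type V chain, went the opposite way to the type I chains at 3 d, at far lower levels. The 0 d libraries held 8.04, 7.96 and 8.21 FPKM and the 3 d libraries 18.7, 22.5 and 21.3. At 6 d they held 6.93, 8.61 and 5.65 FPKM and at 9 d 3.25, 3.37 and 5.39. The 3 d libraries were above all others, and the 9 d libraries below all others. The 3 d mean was 2.58 times the 0 d mean (log2 fold change 1.35 ± 0.20, SE, limma adjusted p = 0.000226). From 3 d to 6 d COL5A3 fell by 1.56 on the log2 scale (SE 0.20, limma adjusted p = 0.000101). At 9 d vs. 0 d the log2 fold change was -1.03 ± 0.20 (SE, limma adjusted p = 0.00243). That last call was lost with a pseudocount of 1 (-0.88), with median-ratio rescaling (-0.83), and without the first or the second 9 d library (-0.90 and -0.93).

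Read against all mRNAs, 4 of the 7 genes were called at 3 d vs. 0 d, where 23.3% of the 15401 tested mRNAs were called. The 3 genes that fell were COL1A1, COL1A2 and COL11A1, against 15.2% of all mRNAs called lower, and the 1 that rose was COL5A3, against 8.06% called higher. In the comparison of 6 d with 0 d 1 of 7 was called, COL5A1, which was higher, where 11.4% of all mRNAs were called, 3.39% higher and 7.97% lower. In that of 9 d with 0 d 1 of 7 was called, COL5A3, which was lower, where 10.9% of all were called, 3.41% higher and 7.47% lower. These shares of the 7 genes at 6 d and 9 d are near the background. Between 3 d and 6 d 4 of 7 were called, COL1A1, COL1A2 and COL11A1 higher and COL5A3 lower, where 19.1% of all were called, 9.85% higher and 9.23% lower. At 9 d vs. 6 d 0 of 7 were called by limma, with 5 at an unadjusted p under 0.05 and 4 at an adjusted p under 0.05, where 4.43% of all were called, 2.55% higher and 1.89% lower.

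The median log2 fold change of the 7 genes was -0.23 at 3 d vs. 0 d, beside -0.064 for all tested mRNAs. It was 0.14 beside -0.15 at 6 d vs. 0 d. For 9 d vs. 0 d it was 0.44 beside -0.19. For 6 d vs. 3 d it was 0.78 beside -0.095, and at 9 d vs. 6 d 0.053 beside -0.036. The median of all mRNAs depends on the scaling: median-ratio rescaling moved it by 0.16 at 6 d vs. 0 d and by 0.19 at 9 d vs. 0 d. With it, the share of called mRNAs that were higher went from 29.8% to 40.6% at 6 d and from 31.3% to 46.6% at 9 d. Relative to this shift the calls of COL1A1, COL1A2 and COL11A1 at 3 d vs. 0 d and 6 d vs. 3 d, and that of COL5A1 at 6 d vs. 0 d, passed under both scalings.

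**Figure D2:**
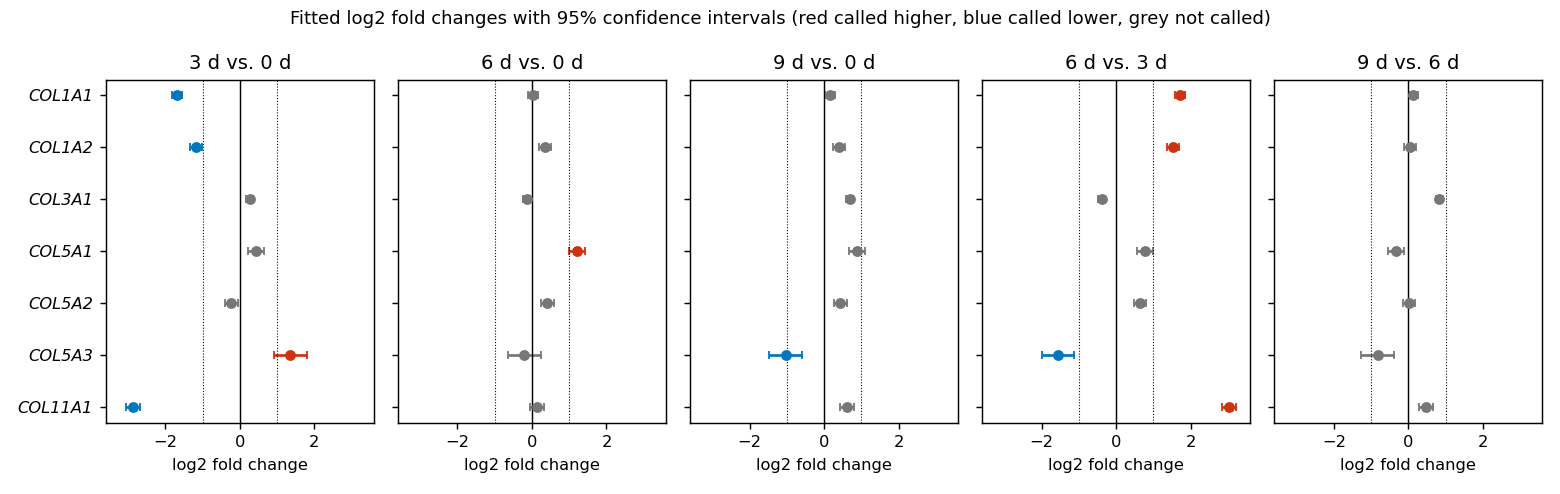
Log2 fold changes (x axis) of the 7 genes (y axis) in the 5 comparisons, from limma on log2(FPKM + 0.1) over 12 libraries. Points are estimates, bars 95% confidence intervals, and dotted lines an absolute log2 fold change of 1. Red points were called higher, blue points lower and grey points were not called. At 3 d vs. 0 d COL1A1, COL1A2 and COL11A1 lie to the left and COL5A3 to the right.

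Ratios between chains within a library do not depend on how that library was scaled, and all 5 ratios compared differed between the days. Each was tested on its log2 values by an exact one-sided permutation test over the 15400 ways to part 12 libraries into 4 groups of 3, with p adjusted over the 5 ratios. The ratio of COL1A1 to COL1A2, the chains of type I collagen, was 0.280 ± 0.0136 (SD, n = 3) at 0 d, 0.197 ± 0.00358 after 3 d, 0.224 ± 0.0156 after 6 d and 0.237 ± 0.00647 after 9 d. It thus differed by at most 1.42 times between days while both genes changed more (exact permutation p = 0.000195, adjusted p = 0.000244). By FPKM there was more COL1A2 than COL1A1 in all 12 libraries, unlike the proportion of the chains in the type I trimer. Whether FPKM measures the transcripts of both genes equally well was not tested.

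The balance between the mRNAs of COL3A1 (type III) and COL1A1 (type I) moved further. COL3A1 was 35.1 ± 2.21 times COL1A1 at 0 d (SD, n = 3), 135 ± 5.92 times after 3 d, 31.3 ± 0.615 times after 6 d and 50.4 ± 2.53 times after 9 d. The 3 d libraries, at 140.3, 129 and 136, stood apart from all others (exact permutation p = 6.49e-05, the smallest that these partitions can give, adjusted p = 0.000162). COL11A1 to COL5A1, chains of the minor fibril-starting collagens, was 0.396 ± 0.0359 at 0 d, 0.0397 ± 0.00193 after 3 d, 0.191 ± 0.0415 after 6 d and 0.330 ± 0.0224 after 9 d. Its highest day was 9.99 times its lowest (exact permutation p = 6.49e-05, again the smallest possible, adjusted p = 0.000162).

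Among the type V chains the proportions of the mRNAs changed as well. COL5A2 to COL5A1 went from 3.83 ± 0.417 at 0 d (SD, n = 3) to 2.43 ± 0.242 after 3 d, 2.22 ± 0.301 after 6 d and 2.80 ± 0.0893 after 9 d (exact permutation p = 0.00149, adjusted p = 0.00149). COL5A3 to COL5A1 went from 0.0176 ± 0.000422 at 0 d to 0.0335 ± 0.00190 after 3 d, 0.00658 ± 0.000852 after 6 d and 0.00471 ± 0.00134 after 9 d (exact permutation p = 0.00013, adjusted p = 0.000216). COL5A2 stood highest against COL5A1 at 0 d, and COL5A3 at 3 d.

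**Figure D3:**
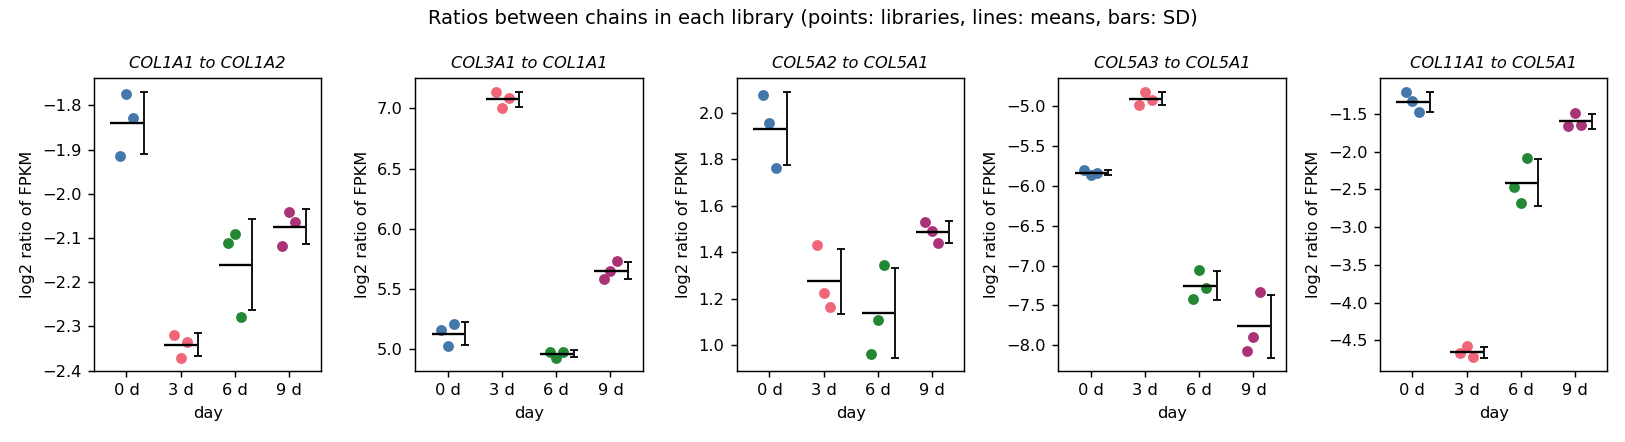
Log2 of the ratio of FPKM (y axis, not from 0) between 5 pairs of chains in each of the 12 libraries by day (x axis). Points are libraries, lines are means of 3 and bars are SD. The COL3A1 to COL1A1 ratio is highest and the COL11A1 to COL5A1 ratio lowest at 3 d.

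Over the 12 libraries, which fall into 4 days of 3, the course of COL1A1 was closest among the 7 genes to COL11A1 (Pearson r = 0.993 of log2 FPKM) and COL1A2 (r = 0.978). COL5A3 ran against them, with r = -0.931 to COL11A1. COL5A2 was closest to COL1A2 (r = 0.877), followed by COL11A1 (r = 0.815) and COL1A1 (r = 0.789), ahead of its type V partner COL5A1 (r = 0.732). COL3A1 had no close partner among the 7, with r = -0.0185 to COL1A1 and r = 0.152 to its chromosomal neighbour COL5A2. All these values rest on the same 12 libraries and describe the day means more than single libraries.

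Among 11316 other mRNAs with a mean of at least 1 FPKM, the courses most like COL1A1 over the 12 libraries were those of FSTL3 (r = 0.998), which encodes a follistatin-like antagonist of activin, EDNRA (r = 0.996), an endothelin receptor, and RAB31 (r = 0.996). FSTL3 stood at 56.4, 10.4, 60.2 and 64.2 FPKM at 0 d, 3 d, 6 d and 9 d. For COL1A2 they were RNASET2 (r = 0.995), NDRG1 (r = 0.992) and WWC1 (r = 0.992). For COL11A1 they were COL6A1 (r = 0.996), a chain of the beaded-filament collagen type VI, ME3 (r = 0.994), a malic enzyme, and BoLA;BOLA;LOC788634 (r = 0.994). COL6A1 stood at 1136, 302, 1160.1 and 1445 FPKM on the 4 days. The number of mRNAs with an r over 0.95 was 314 for COL1A1, 202 for COL1A2 and 272 for COL11A1, and these numbers were not compared with those of other courses.

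COL3A1 had 3 mRNAs over 0.95. These were DPYD (r = 0.977), the first enzyme of pyrimidine breakdown, PDPN (r = 0.968), a membrane mucin of stromal cells, and SECISBP2L (r = 0.956). Most like COL5A1 were PGAM1 (r = 0.969), NTS (r = 0.966) and PFKL (r = 0.963), of which PGAM1 and PFKL are glycolytic enzymes. Most like COL5A2 were CYP7B1 (r = 0.963), EDIL3 (r = 0.962) and XYLB (r = 0.958). Most like COL5A3 were FTSJ3 (r = 0.981), ECH1;LGALS4 (r = 0.979) and NEURL4 (r = 0.975).

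Of the 4 smooth muscle and myofibroblast markers 3 moved with the type I and type XI genes at 3 d and 6 d. ACTA2, TAGLN and CNN1 fell at 3 d vs. 0 d, where 15.2% of all mRNAs were called lower, and rose at 6 d vs. 3 d, where 9.85% were called higher, as COL1A1, COL1A2 and COL11A1 did. At 9 d vs. 6 d the same 3 fell, where 1.89% of all mRNAs were called lower, while COL1A1, COL1A2 and COL11A1 were not called. The 6 d vs. 0 d comparison, where 3.39% of all mRNAs were called higher, had TAGLN (means 224 and 448 FPKM) and CNN1 (11.8 and 47.5) called higher, and COL1A1, COL1A2 and COL11A1 not called. Without the first or the second 0 d library, or the second or the third 6 d library, TAGLN was short of a call there (log2 fold changes 0.98, 0.96, 0.99 and 0.99), and so it was when rescaled to all other mRNAs. ACTA2, the actin of myofibroblasts, was the most abundant of the 4 over the course, though not at 3 d. ACTA2 was at 1697 ± 70.1 FPKM at 0 d (SD, n = 3), 26.8 ± 2.17 after 3 d, 1583 ± 69.3 after 6 d and 598 ± 30.2 after 9 d. MYH11, the smooth muscle myosin, had means of 23.3, 57.2, 33.9 and 20.6 FPKM on the 4 days, the highest at 3 d. It was not called in any of the 5 comparisons (3 d vs. 0 d log2 fold change with a 95% confidence interval of -0.14 to 2.73, limma adjusted p = 0.118), but with only the 6 libraries of 0 d and 3 d in the fit it was called higher at 3 d. The 4 markers summed to 1956 at 0 d, 106 after 3 d, 2112 after 6 d and 782 after 9 d FPKM. The part of these markers in the collagen values was not tested.

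Of 7 tested skeletal muscle markers 6 fell at 3 d vs. 0 d, 4 at 6 d vs. 0 d and 5 at 9 d vs. 0 d, where, in this order, 15.2%, 7.97% and 7.47% of all mRNAs were called lower. DES had means of 393, 138, 314 and 207 FPKM on the 4 days and was lowest at 3 d, as COL1A1 was, and so was TNNT1. The other 5, among them MYOD1 with means of 268, 109, 47.7 and 54.5 FPKM, had their lowest mean at 6 d or 9 d. Of the tendon markers MKX, which is also on the list of collagen gene regulators, made up most of the sum, which was 36.5 at 0 d, 4.70 after 3 d, 21.3 after 6 d and 37.3 after 9 d FPKM. SCX had means of 0.620, 1.17, 0.597 and 0.540 FPKM, with the highest at 3 d, and was not called. With a pseudocount of 0.01 (log2 fold change -1.01) and without the first 6 d library (-1.13) SCX was called lower at 6 d vs. 3 d. TNMD was at most 0.400 FPKM in any library. The part of these markers was not tested either. Proliferation markers summed to 40.9 at 0 d, 62.9 after 3 d, 40.2 after 6 d and 27.8 after 9 d FPKM, and 0 of the 4 were called by limma in any of the 5 comparisons. Without the second 3 d library, which held 16.0 FPKM of CDK1 against 42.2 and 42.0 in the others of 3 d, CDK1 was called higher at 3 d vs. 0 d (log2 fold change 1.34) and lower at 6 d vs. 3 d (-1.36). At an unadjusted p under 0.05 2 were higher at 3 d vs. 0 d and 1 at 6 d vs. 0 d, while 3 were lower at 9 d vs. 0 d, 2 at 6 d vs. 3 d and 3 at 9 d vs. 6 d.

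Of the other fibrillar collagen genes, COL2A1 and COL11A2 stayed below the level needed for testing. COL2A1, the main cartilage collagen, was at most 0.0200 FPKM in any library, and COL11A2 at most 0.0800. COL24A1 had means of 0.0600, 0.147, 0.137 and 0.200 FPKM at 0 d, 3 d, 6 d and 9 d, and COL27A1 of 0.277, 0.247, 0.307 and 0.547. Neither of these was called by limma in any of the 5 comparisons, with both at an unadjusted p under 0.05 at 9 d vs. 0 d. With a pseudocount of 0.01 COL24A1 was called higher in the comparisons of 3 d, 6 d and 9 d with 0 d. It was also called higher at 9 d vs. 0 d with median-ratio rescaling (log2 fold change 1.01) and without the first 0 d library (1.00).

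The genes that make, export, trim, cross-link and degrade collagen were counted in the same limma fit, by lists. The share of each list that was called stands in brackets beside its median log2 fold change, to be read against the 23.3% of all mRNAs called at 3 d vs. 0 d, 11.4% at 6 d vs. 0 d, 10.9% at 9 d vs. 0 d, 19.1% at 6 d vs. 3 d and 4.43% at 9 d vs. 6 d. In a list of 5 to 13 genes 1 gene is a large share, and no list was tested as a whole. With a pseudocount of 1 some calls in these lists were lost. They were those of ADAMTS14, MMP13 and ITGA10 at 3 d vs. 0 d, of PLOD1, DDR1 and ITGA10 at 6 d vs. 0 d, of ADAMTS3 at 9 d vs. 0 d, of PCOLCE2, ADAMTS14, SMAD3, MMP13 and FAP at 6 d vs. 3 d and of P3H2 and OSCAR at 9 d vs. 6 d. Of 12 tested collagen-modifying enzymes 1 rose and 1 fell at 3 d vs. 0 d (16.7%, median 0.017). At 6 d vs. 0 d 4 rose and 0 fell, with 0 of those not called lower at an unadjusted p under 0.05 (33.3%, median 0.58). Of the 4, 1 was short of a call without the second 0 d library (log2 fold change 0.97) or the second 6 d library (0.98). With median-ratio rescaling 6 rose there, P4HA2 and PLOD2 in addition (1.11 and 1.03). At 9 d vs. 0 d 2 rose (16.7%, median 0.38). P4HA3, a catalytic chain of prolyl 4-hydroxylase, had a mean of 7.70 ± 0.347 FPKM at 0 d (SD, n = 3) and 174 ± 11.7 at 3 d, a log2 fold change of 4.48 ± 0.077 (SE, limma adjusted p = 7.72e-11), while COL1A1 and COL1A2 fell. It then was at 108 FPKM at 6 d and 37.2 at 9 d. P4HA1, a related catalytic chain, rose at 6 d vs. 0 d by 1.97 ± 0.39 (SE, limma adjusted p = 0.00313), with the third 0 d library at 12.9 FPKM and the others at 47.6 and 43.2. Without that library the log2 fold change was 1.37, and it was still called. At 3 d vs. 0 d P4HA1 was not called, but it was called higher without the first or the second 0 d library (1.21 and 1.14). P3H2, a prolyl 3-hydroxylase, had means of 3.33, 0.807, 3.86 and 1.71 FPKM on the 4 days. It fell at 3 d vs. 0 d and rose at 6 d vs. 3 d, as the type I chains did, and was 1 of the 2 of the list that fell at 9 d vs. 6 d (16.7%), when the type I chains were not called. That last call was lost with a pseudocount of 1 (-0.84). PLOD2, which hydroxylates lysines of the telopeptides, rose at 6 d vs. 3 d by 1.55 ± 0.12 (SE, limma adjusted p = 2.95e-06).

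Of 11 collagen chaperones and export genes 1 rose and 2 fell at 3 d vs. 0 d (27.3%, median -0.49), and 4 rose and 1 fell at 6 d vs. 3 d (45.5%, median 0.42). SERPINH1, which encodes the collagen chaperone HSP47, was at 275 ± 22.7 FPKM at 0 d (SD, n = 3), 145 ± 26.7 at 3 d and 573 ± 26.7 at 6 d, and at 6 d it was 3.95 times its 3 d level (limma adjusted p = 9.88e-06). SEC23A and SEC24D, coat proteins of the vesicles that carry procollagen, fell at 3 d, when their 0 d means were 2.63 and 2.29 times as high, and rose at 6 d vs. 3 d by 1.54 and 1.53 on the log2 scale. FKBP14, a prolyl isomerase that binds type III collagen, rose at 3 d vs. 0 d by 1.19 ± 0.075 (SE, limma adjusted p = 4.52e-07). At 6 d vs. 0 d 2 rose and 1 fell (27.3%). That fall was short of a call without the second 6 d library (log2 fold change -0.84) and with median-ratio rescaling (-0.996). At 9 d vs. 0 d 1 rose (9.09%).

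Of 9 genes listed for propeptide processing 7 were found by name in the mRNA table, without BMP1 and PCOLCE, and 5 were tested. Of the 5 tested 1 rose and 2 fell at 3 d vs. 0 d (60%, median 0.30), and 2 rose and 1 fell at 6 d vs. 3 d (60%, median 0.16). ADAMTS3, an N-propeptidase, had means of 1.99 ± 0.245 FPKM at 0 d (SD, n = 3), 12.7 ± 0.497 at 3 d and 3.13 ± 0.266 at 6 d, a rise of 2.61 ± 0.10 at 3 d vs. 0 d (SE, limma adjusted p = 1.23e-08). PCOLCE2, which speeds the removal of C-propeptides, went from 5.20 FPKM at 0 d to 1.59 at 3 d, a fall with a limma adjusted p of 2.94e-07. Its rise at 6 d vs. 3 d (log2 fold change 1.00) was short of a call without the first or the third 3 d library (0.96 and 0.98) or the third 6 d library (0.95), and when rescaled to all other mRNAs (0.91). With a pseudocount of 1 both rises of 6 d vs. 3 d, of PCOLCE2 and ADAMTS14, were short of a call (0.72 and 0.56), and so was the fall of ADAMTS14 at 3 d vs. 0 d (-0.72).

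Of 5 cross-linking enzymes 2 fell at 3 d vs. 0 d (40%, median -0.75) and 2 rose at 6 d vs. 3 d (40%, median 0.38). They were LOX and LOXL4 both times. At 9 d vs. 0 d 1 fell (20%), LOXL4, a call that was lost with median-ratio rescaling (log2 fold change -0.95). At 6 d vs. 0 d and at 9 d vs. 6 d limma called 0, each with 3 at an unadjusted p under 0.05. LOX, lysyl oxidase itself, was at 436 ± 16.6 FPKM at 0 d (SD, n = 3), 131 ± 3.32 after 3 d, 284 ± 2.90 after 6 d and 353 ± 22.8 after 9 d. LOXL4 was at 64.1, 63.5 and 66.3 FPKM in the 0 d libraries and at 0.540, 0.500 and 0.610 in those of 3 d, a log2 fold change of -6.64 ± 0.071 (SE, limma adjusted p = 5.95e-12).

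Of 11 fibril regulators 2 rose and 3 fell at 3 d vs. 0 d (45.5%, median -0.35). DCN (decorin) and LUM (lumican), leucine-rich proteoglycans that bind fibrils and limit their width, were the 2 that rose. DCN went from 9949 ± 534 FPKM at 0 d (SD, n = 3) to 42430.4 ± 936 at 3 d and 44464 ± 609 at 9 d, with a log2 fold change at 3 d of 2.09 ± 0.043 (SE, limma adjusted p = 1.91e-10). FMOD (fibromodulin), POSTN (periostin) and TNXB (tenascin X) were the 3 that fell. FMOD had means of 1663, 249.8, 421 and 1363 FPKM at 0 d, 3 d, 6 d and 9 d, and POSTN of 56.6, 1.90, 11.5 and 31.0, so that both were lowest at 3 d, as COL1A1 was. TNXB did not come back and had means of 154, 10.8, 2.70 and 2.21 FPKM. Against 0 d 4 of the list rose and 3 fell at 6 d (63.6%, median -0.21), and at 9 d 3 rose and 1 fell (36.4%, median 0.13).

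Of 13 regulators of collagen genes 1 rose and 3 fell at 3 d vs. 0 d (30.8%, median 0.21), and 3 rose and 2 fell at 6 d vs. 3 d (38.5%, median -0.20). Of the 2 falls 1 was lost without the first or the third 3 d library (log2 fold changes -0.95 and -0.96), or without the first or the second 6 d library (-0.99 and -0.98). Without the second 3 d library SMAD3 was also called higher at 3 d vs. 0 d (1.09). In the comparisons of 6 d and 9 d with 0 d 0 were called by limma, with 3 and 1 at an unadjusted p under 0.05. LARP6, which binds the 5′ stem-loop of type I and type III collagen mRNAs, was at 97.7 ± 6.63 FPKM at 0 d (SD, n = 3), 17.2 ± 1.48 after 3 d, 66.1 ± 1.90 after 6 d and 53.1 ± 5.28 after 9 d. MKX (mohawk), a tendon transcription factor that raises COL1A1, had means of 35.6, 3.53, 20.7 and 36.8 FPKM on the 4 days. CREB3L1, a membrane-bound factor that drives type I collagen genes in bone and fibroblasts, had means of 41.0, 14.7, 69.6 and 43.3 FPKM. These 3 genes fell at 3 d vs. 0 d, with log2 fold changes of -2.50, -3.38 and -1.47, and rose at 6 d vs. 3 d, so that their direction was that of COL1A1, COL1A2 and COL11A1. NFYA, the subunit of the CCAAT-binding factor that contacts DNA, moved the other way, with means of 22.1, 57.6, 24.4 and 21.3 FPKM. COL3A1, the type III chain, did not fall with LARP6 at 3 d. Its means were 105843 FPKM at 0 d and 126606 at 3 d, and the change was not called. Whether these regulators had a part in the collagen values was not tested.

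Of 8 tested genes of collagen breakdown and its inhibitors 2 rose and 3 fell at 3 d vs. 0 d (62.5%, median -0.15). MMP2, a gelatinase, rose from 912 ± 26.9 FPKM at 0 d (SD, n = 3) to 3419 ± 252 at 3 d, by 1.90 ± 0.055 on the log2 scale (SE, limma adjusted p = 1.79e-09). MMP13, a collagenase, was listed at 0 in the 3 libraries of 0 d and had a mean of 0.550 FPKM at 3 d, a call that was lost with a pseudocount of 1. TIMP3, a metalloproteinase inhibitor held in the matrix, was at 138, 105 and 137 FPKM at 0 d and 2.87, 2.48 and 2.41 at 3 d. FAP, a protease of activated fibroblasts, had means of 7, 0.527, 1.78 and 7.84 FPKM on the 4 days. At 9 d vs. 6 d 2 rose (25%), FAP and TIMP1, and TIMP1 reached 2087 ± 112 FPKM (SD, n = 3). At 6 d vs. 0 d 1 of the list rose and 3 fell (50%), at 9 d vs. 0 d 2 rose and 1 fell (37.5%), and at 6 d vs. 3 d 3 rose and 2 fell (62.5%). The 1 that fell at 9 d was TIMP3 (limma adjusted p = 0.0172), and this call was lost without the first or the third 0 d library (adjusted p = 0.0542 and 0.0512) or the second 9 d library (0.0578). Its call at 6 d vs. 0 d (limma adjusted p = 0.0338) was lost without the first or the third 0 d library (0.0938 and 0.0873), without the second 6 d library, where the log2 fold change was -0.59, with median-ratio rescaling and with only the 6 libraries compared.

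Of 7 tested collagen receptors 1 rose and 4 fell at 3 d vs. 0 d (71.4%, median -1.35), and 3 rose at 6 d vs. 3 d (42.9%, median 0.73). ITGA11, the integrin chain that fibroblasts use to hold type I fibrils, was at 21.4, 21.6 and 25.2 FPKM at 0 d and 1.05, 0.770 and 1.34 at 3 d. Its 6 d libraries held 40.9, 39.7 and 38.3 FPKM, and the log2 fold change of 6 d vs. 3 d was 5.14 ± 0.15 (SE, limma adjusted p = 3.41e-09). DDR1, a receptor kinase that collagen binds, fell from 21.3 ± 0.336 FPKM at 0 d (SD, n = 3) to 6.11 ± 0.516 at 3 d (limma adjusted p = 3.98e-06). OSCAR was listed at 0 in the 3 libraries of 3 d, against 3.55 ± 0.581 FPKM at 0 d. At 6 d vs. 0 d 1 of the list rose and 2 fell (42.9%). The fall of DDR1 there was lost with median-ratio rescaling (log2 fold change -0.89) and without the first 6 d library (-0.90). At 9 d vs. 0 d and at 9 d vs. 6 d 1 rose (14.3% each). At 9 d vs. 0 d ITGA10 was also called higher with median-ratio rescaling (1.16), and DDR1 lower without the first or the third 9 d library (-1.07 and -1.05).

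**Figure D4:**
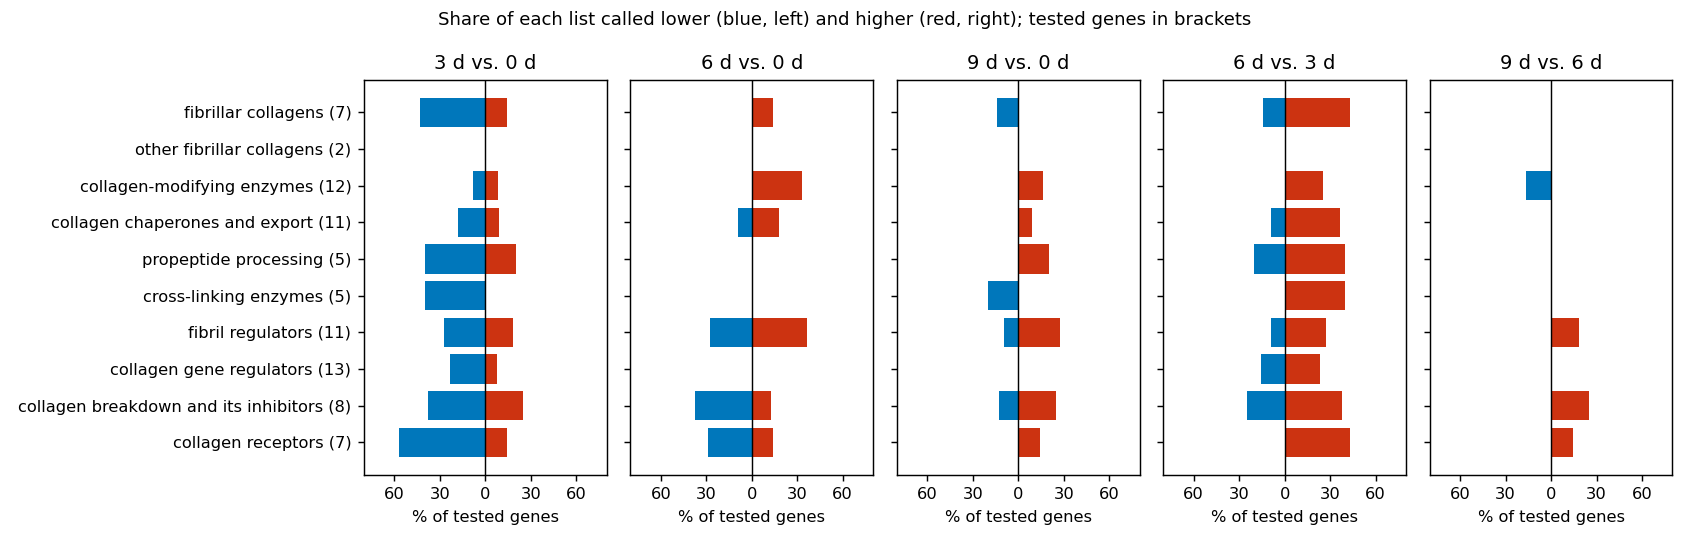
Percentage of the tested genes of each list (x axis) that limma called lower (blue, to the left) or higher (red, to the right) in the 5 comparisons, with the number of tested genes in brackets. At 3 d vs. 0 d 4 of 7 collagen receptors were lower, and at 6 d vs. 3 d 3 of 7 fibrillar collagens were higher.

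Circular RNAs are listed in the table as exonic (circRNA), where a back-splice joins the end of an exon to an earlier start, and as circular RNAs of introns (ciRNA), and both were listed for 6 of the 7 genes. Of 14070 circular RNAs with 95674 back-splice reads in all, 110 with 994 reads were assigned to these 6 host genes, and 0 to COL5A3. Of the 110, 75 with 902 reads were exonic and 35 with 92 were intronic. The labels describe isolation of RNA with poly-T beads and the paper removal of rRNA, and since circular RNAs lack a poly(A) tail, how they were captured is not settled. The back-splice reads per library numbered 5358 to 10729, so that a single circRNA seldom had more than a few reads. COL5A1 gave the most reads, 488 over 18 circular RNAs, although its mRNA was far less abundant than that of COL3A1, which gave 105 over 23. COL1A2 gave 191 over 34, COL1A1 180 over 27, COL5A2 24 over 4 and COL11A1 6 over 4. Of the COL5A2 reads 22 were intronic. Exonic circRNAs were listed on both strands for COL1A1 (133 reads on the plus and 39 on the minus strand), COL1A2 (144 and 20), COL3A1 (34 and 66) and COL5A1 (452 and 7), so that some of these reads are listed on the strand opposite to their host gene. The strand of the genes was not included in the copy of the annotation used here.

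Summed by host gene over both types and strands, the COL1A2 circular RNAs had the dip of their mRNA. The 0 d libraries held 10, 16 and 11 reads and the 3 d libraries 2, 4 and 0. At 6 d they held 20, 13 and 18 reads and at 9 d 25, 44 and 28. The 3 d libraries lay below all others. Per 100000 back-splice reads of a day this was 169.6 at 0 d, 24.9 after 3 d, 259.5 after 6 d and 322 after 9 d. In edgeR over the 2112 host genes tested, COL1A2 was the 1 of the 6 genes called at 3 d vs. 0 d, where 0.758% of host genes were called (log2 fold change -2.84, adjusted p = 0.000442). Without the third 3 d library, which held 0 reads, the log2 fold change was -2.26, the adjusted p was 0.0509 and the call was lost. With exonic circRNAs alone, and with those of the plus strand alone, which held most of these reads, it was called, with log2 fold changes of -2.59 and -2.30 (adjusted p = 0.00431 and 0.0467). Over all alternatives the adjusted p went from 0.00065 to 0.0509. On the later days edgeR and DESeq2 each called 0 of the 6 against 0 d, where, in the order of 6 d and 9 d, 0.521% and 0.237% of host genes were called, and at 9 d 3 of them had an unadjusted p under 0.05.

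Reads of COL1A1 circular RNAs numbered 5, 10 and 25 in the 0 d libraries and 4, 10 and 6 in those of 3 d (edgeR adjusted p = 0.402). The 2 days overlapped, and the difference was not called. The 39 reads on the minus strand are in these sums, 19 of them from circRNA7915, with 12 in the second 9 d library. Exonic circRNAs of the plus strand alone had 2, 10 and 25 reads at 0 d and 4, 6 and 0 at 3 d, where edgeR called them lower (log2 fold change -2.08, adjusted p = 0.0461), although these days overlapped too. In the other alternatives COL1A1 was not called, and over all of them the adjusted p went up to 0.88. Reads of COL3A1 circular RNAs numbered 8, 1 and 3 at 0 d and 21, 12 and 21 at 9 d (log2 fold change 1.86, edgeR adjusted p = 0.163). The adjusted p missed the threshold. All 3 libraries of 9 d lay above those of 0 d, but without circRNA6869, the largest of this host, the reads were 8, 1 and 3 at 0 d and 14, 1 and 14 at 9 d, and the days overlapped.

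Single circular RNAs from the 7 genes with at least 10 reads over the 12 libraries numbered 13, of which ciRNA102 of COL5A2 (20 reads) and ciRNA65 of COL5A1 (11) were intronic. All of them but ciRNA102 lie within their host gene in the annotation of ARS-UCD2.0, and ciRNA102 (chr2:7284218-7285769), which holds most of the COL5A2 reads, extends past the lower-coordinate end of COL5A2 there. The largest, circRNA1121, came from 3 exons of COL5A1 (chr11:105305682-105312830, plus strand, coordinates as in the deposited table). As build of these coordinates the labels name mm8, of mouse, and the paper's methods ARS-UCD1.2. circRNA1121 had 34, 32 and 31 reads at 0 d, 20, 46 and 38 after 3 d, 23, 33 and 56 after 6 d and 51, 35 and 46 after 9 d, 445 in all. The reads of 0 d lay below those of 9 d and all other pairs of days overlapped, and with library size taken into account it was not called, with edgeR adjusted p of 1, 0.837 and 0.986 for the 3 comparisons with 0 d. A second, circRNA6869, was assigned to COL3A1 (chr2:7386844-7388533) and is listed on the minus strand, whereas circRNA1886 of the same host is listed on the plus strand. It had 0, 0 and 0 reads at 0 d, 0, 7 and 7 after 3 d, 5, 2 and 0 after 6 d and 7, 11 and 7 after 9 d. In the comparison of 9 d with 0 d edgeR called it higher (adjusted p = 0.0289), the 1 of the 13 called, where 0.566% of 2828 tested circRNAs were called. In each of the 10 alternatives run, DESeq2 among them, this call was lost, with adjusted p from 0.0558 to 1. At 3 d and 6 d both edgeR and DESeq2 called 0 of the 13 against 0 d, where 0.813% and 0.53% of all were called, and 3 and 2 of them had an unadjusted p under 0.05. circRNA4604 of COL1A1 was called lower at 3 d vs. 0 d without the first or without the second 0 d library (lowest adjusted p = 0.0448), but all 12 of its reads in these 2 days came from the third 0 d library, and without that 1 its log2 fold change was 0.

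miR-29 is the miRNA family best known to pair with sites in fibrillar collagen mRNAs and to lower them. Its mature sequences as the miRNA table lists them follow, in the letters of that table, with the seed (bases 2 to 8) in capitals, since the seed decides which mRNAs a miRNA pairs with. The names carry the species of the matched entry (bta for cattle, chi for goat, mmu for mouse), and L-1 means 1 base fewer at the left end than that entry.
bta-miR-29a_L-1: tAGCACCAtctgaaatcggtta
bta-miR-29b: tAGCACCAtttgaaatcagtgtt
bta-miR-29c: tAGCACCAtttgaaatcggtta
The 3 share the seed AGCACCA as listed, and they differ in the bases after it. The other arms of the hairpins, chi-miR-29a-5p_R+4, mmu-miR-29b-1-5p_R+2 and chi-miR-29b-5p, do not carry this seed and had 548, 179 and 51 reads over the 12 libraries.

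Nearly all reads of the shared seed belonged to bta-miR-29a_L-1. Its raw values were 10473, 12988 and 10315 in the 0 d libraries and 18663, 23096 and 24400.5 in those of 3 d. At 6 d they were 31269, 45403 and 38878, and at 9 d 36418, 36234 and 50989. The totals of all miRNAs differed between libraries, from 1434146 to 4657595, so that values scaled by TMM and library size (CPM) are the ones to compare. These were 6252 ± 811 at 0 d (SD, n = 3), 7816 ± 763 after 3 d, 9756 ± 465 after 6 d and 14593 ± 2174 after 9 d. The 9 d libraries lay above all others.

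In edgeR over 1058 miRNAs bta-miR-29a_L-1 rose at 9 d vs. 0 d by 1.32 on the log2 scale (adjusted p = 5.92e-05), the 1 of the 6 tested miR-29 sequences called, where 19.1% of all miRNAs were called. For 6 d vs. 0 d the edgeR log2 fold change was 0.65 (adjusted p = 0.0178), under the fold threshold, and at 3 d vs. 0 d it was 0.33 (adjusted p = 0.278). Of the 6 sequences edgeR, like DESeq2, called 0 at 3 d and 0 at 6 d, where 6.14% and 11.3% of all were called, with 1 each at an unadjusted p under 0.05. Without the first 3 d library mmu-miR-29b-1-5p_R+2 was called lower at 3 d vs. 0 d (log2 fold change -7.26, adjusted p = 0.0028). It had 11, 0 and 0 reads in the 3 d libraries and 12, 13 and 11 in those of 0 d. bta-miR-29b and bta-miR-29c had 90.5 and 26.5 reads over all libraries and were not called. The day of the highest bta-miR-29a_L-1, 9 d, was also the day of the highest COL1A1, COL1A2, COL3A1, COL5A2 and COL11A1, and the dip of the type I chains at 3 d came with a miR-29a level between those of 0 d and 6 d. Pairing of the miRNA with these mRNAs was not analysed here.

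**Figure D5:**
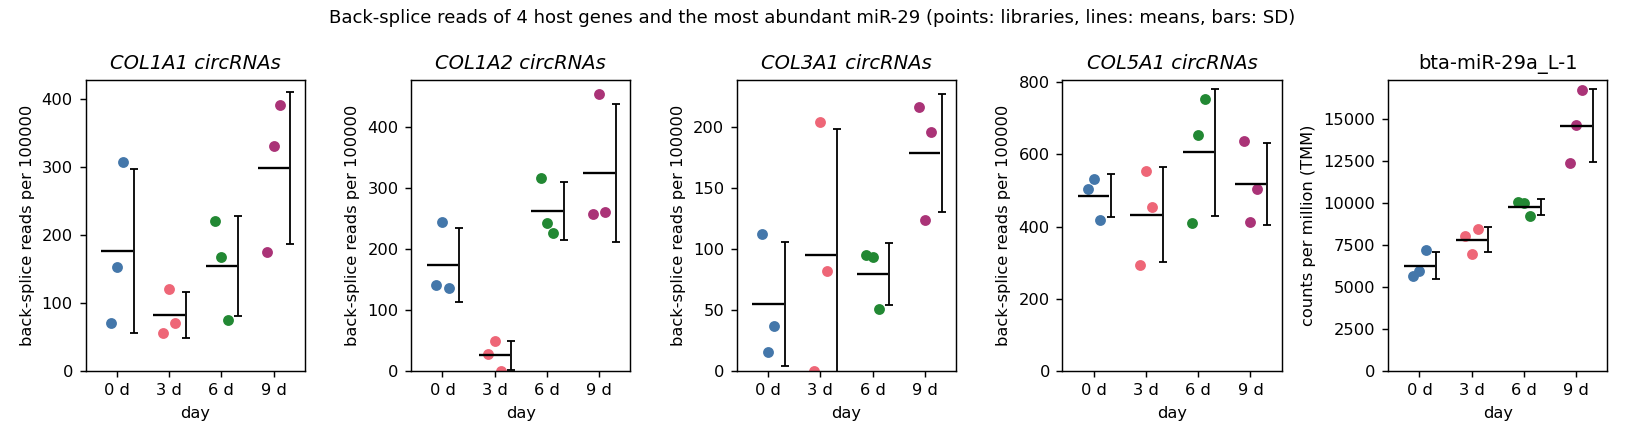
Back-splice reads per 100000 (y axis, from 0) summed over the circular RNAs of both types and strands of COL1A1, COL1A2, COL3A1 and COL5A1, and counts of bta-miR-29a_L-1 scaled by TMM and library size (CPM) (last panel), in the 12 libraries by day (x axis). Points are libraries, lines are means of 3 and bars are SD. COL1A2 circular RNAs are lowest at 3 d, and bta-miR-29a_L-1 is highest at 9 d.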

How the data were processed

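RNA was measured in 12 libraries of bovine preadipocytes, 3 for each of 4 days, and grouped by the day in the labels. Per the file headers the mRNA values are FPKM, which the authors computed per gene after mapping and assembly, and whose depth in reads is not known from the table. FPKM summed to 1221194 to 1371794 per library. The deposited circRNA values used are a count of back-splice reads per library, which the authors called from mapped reads and, in a further step, from reads left unmapped. The raw miRNA values are, as deposited, estimated counts, since reads shared by several miRNAs were divided between them by the authors. The labels list HISAT2 2.0, StringTie 1.3.0 and Bowtie 0.12.2. Of the value columns, 36 were used. The other 36, the scaled circRNA and miRNA signals and the lncRNA values, were not used here.

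mRNAs with a mean of at least 0.1 FPKM were fitted with limma 3.58.1 on log2(FPKM + 0.1), with a mean for each day and a trended prior. circRNAs (at least 5 reads) and miRNAs (at least 10, rounded) were fitted with edgeR 4.0.16 (TMM, quasi-likelihood), and so were reads summed by host gene, which was added after seeing the data. All p were adjusted by Benjamini-Hochberg over every feature of a fit. Chain ratios had exact permutation tests. The fits were also tested on simulated data, where that of single circRNAs called no smaller and only a minority of larger added changes, and that of host sums few smaller ones. Pearson r of log2(FPKM + 0.1) ranked the 3 mRNAs most like each gene. Tables were handled with Python 3.11.15, pandas 2.3.3 and NumPy 2.4.6, models with R 4.3.3, and figures were drawn with Matplotlib 3.10.9.

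The lists were other fibrillar collagens, collagen-modifying enzymes, chaperones and export, propeptide processing, cross-linking enzymes, fibril regulators, collagen gene regulators, breakdown and its inhibitors, and receptors, with markers of 10 cell types or states. Named genes are the 7 collagens, markers, at most the 2 called genes with the largest rise and the 2 with the largest fall for each list and comparison, circRNAs of the 7 genes and miR-29 sequences with at least 10 reads. Not found by name in the mRNA table, and so in no count, were P3H3, BMP1, PCOLCE, AEBP1, CTSK, ITGA1, PAX7, PLIN1 and PPARG. The members and lists were chosen with earlier results of these data known. Alternatives were pseudocounts of 1 and 0.01, other filters, 2 rescalings, no trend, only the 6 libraries compared, DESeq2 1.42.0, a replicate block and leaving out each library. Host sums of exonic circRNAs alone, and of those on the strand with most of a host's reads, were added after seeing the data.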

Additional observations from a re-analysis of the deposited data

How the results depend on the processing

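Of 525 log2 fold changes of the 7 collagen mRNAs under the alternatives, 519 kept their direction and their side of the thresholds, 4 were no longer called (COL5A3 at 9 d vs. 0 d), 2 became called and 0 reversed. The 2 were COL5A1 at 9 d vs. 0 d with median-ratio rescaling and COL5A3 at 9 d vs. 6 d without 9 d replicate 3 (log2 fold change -1.05). Leaving out 1 library at a time, 0 to 1 of the 7 were called at 9 d vs. 0 d, 0 to 1 at 9 d vs. 6 d, 4 each time at 3 d vs. 0 d, 1 at 6 d vs. 0 d and 4 at 6 d vs. 3 d. The 0 at 9 d vs. 0 d came without 9 d replicate 1 and without 9 d replicate 2. With a pseudocount of 1, limma called 0 of the 7 at 9 d vs. 0 d, with 7 at an unadjusted p under 0.05. All 5 chain ratios kept an adjusted p under 0.05 in the alternatives with a test.

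With a pseudocount of 1 the mRNAs called numbered 2184 at 3 d vs. 0 d, 967 at 6 d vs. 0 d, 888 at 9 d vs. 0 d, 1688 at 6 d vs. 3 d and 368 at 9 d vs. 6 d, since small values then give smaller fold changes. With a mean of at least 1 FPKM, which tests fewer mRNAs, 1114 were called at 9 d vs. 0 d. Leaving out 1 library, these counts of mRNAs stayed within 1.5 times those in the report. Of 7875 fold changes of list genes, 7733 kept their direction and side, 90 were no longer called, 52 became called and 0 reversed.

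DESeq2 called 3, 0 and 0 circRNAs at 3 d, 6 d and 9 d vs. 0 d, with 42 and 45 at an unadjusted p under 0.05 on the later days. With at least 20 counts edgeR called 3, 0 and 0, with 59 and 69 at an unadjusted p under 0.05. Host genes called by DESeq2 were 3 at 6 d and 0 at 9 d, with 66 at an unadjusted p under 0.05. With at least 20 counts they were 7 at 6 d and 1 at 9 d, and with no filter 3 at 9 d. Without 1 library, 10 to 21 circRNAs were called at 3 d and 9 to 12 at 6 d, and 4 to 8 host genes at 6 d and 3 to 7 at 9 d. The lowest were without 3 d replicate 3, without 0 d replicate 3, without 0 d replicate 1 or 6 d replicate 3, and without 0 d replicate 2 or 9 d replicate 1. The cause was not tested. Back-splice reads of 5358 to 10729 per library limit what circRNA differences can be seen.

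With a replicate block, 9 circRNAs were called at 6 d vs. 0 d, and all 35 fold changes of the 7 collagen mRNAs kept their direction and side. Deviations from the day means had an r under 0.1 between libraries of the same replicate number on different days, in all 15 cases. Libraries of different numbers were not compared in this way, so that these values show no pairing by replicate number but cannot exclude it.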
